A study of Mus musculus with 12 samples.

Results

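The genes described here encode 41 secreted glycoproteins and proteoglycans of the extracellular matrix, picked by gene symbol from a deposited table of 54532 mouse genes. They comprise 8 small leucine-rich proteoglycans, 2 large proteoglycans, 6 fibronectin-like and adhesive glycoproteins, 8 matricellular proteins, 14 elastic fibre and microfibril proteins, and a last set of 3 made up of matrix Gla protein and the heparin-binding growth factors pleiotrophin and midkine. All 41 symbols were found in the table. Collagens, laminins and matrix proteases were not among them.

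The study sequenced RNA of 3T3-L1 cells, a wild-type mouse fibroblast-like line that stores fat once it has been induced. The 12 libraries, all from day 6, fall into 4 groups of 3. The untreated group is labelled as such. DMI cells received 0.5 mM IBMX, 1 uM dexamethasone and 10 ug/ml insulin after confluence, and the remaining groups received DMI with luteolin or DMI with quercetin. The labels print the same induction protocol for every library, and what sets the untreated cells apart there is their title and treatment entry. Luteolin is a flavone and quercetin the flavonol that carries 1 more hydroxyl group. Their doses and times of addition are not in the labels, so their responses are set side by side and are not known to be at matched doses. The labels do not say that replicates were separate cultures, so p-values measure only the spread between these libraries, which may be technical.

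Glycoproteins and proteoglycans fill the space between collagen fibrils and cells. Small leucine-rich proteoglycans bind collagen and set fibril spacing, fibronectin is laid down by fibroblasts as a scaffold to which cells attach through integrins, and microfibrils of fibrillin carry elastin and hold latent TGF-beta. Preadipocytes are fibroblast-like and make a fibronectin-rich matrix, and remodelling of that matrix towards a basement membrane is a known feature of fat cell differentiation.

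Libraries held 14522182 to 19436796 counts, and 37 of the 41 genes were among the 14855 that passed the low-count filter. Library 3 of every induced group stood apart from libraries 1 and 2. The summed CPM (counts scaled to a common library total, with TMM) of 10 adipocyte markers was 20799, 23309 and 6527 in DMI libraries 1, 2 and 3, 12721, 14180 and 5980 with luteolin, 7308, 7135 and 3332 with quercetin, and 731 to 755 in untreated cells. The summed CPM of 9 preadipocyte and fibroblast markers was 56073 to 58903 in untreated cells, 27925 to 40328 with DMI, 23387 to 31826 with luteolin and 28812 to 33561 with quercetin, and its highest value in each induced group was again that of library 3. Of the fibroblast list, Col1a1, Col1a2 and Col3a1 are themselves matrix genes. In untreated cells their mean CPM were 16155, 18242 and 15266, and Dlk1 had 6574 to 6904, so these genes made up most of that sum. With DMI 7 of the 9 fell, and the other 2, with log2 fold changes above 0, were not called. Markers of macrophages, endothelium and epithelium summed to at most 8.14, 2.98 and 1.85 CPM in any library, and Adgre1 of the macrophage list was at 0 in all libraries. The 7 smooth and skeletal muscle markers summed to 153 to 191 CPM untreated, 81.2 to 157 with DMI, 125 to 183 with luteolin and 148 to 216 with quercetin, with Myod1 and Myog at 0 in all libraries, and of the 3 tested 2 rose with DMI. The 8 osteoblast and chondrocyte markers summed to 156 to 166 CPM untreated, 80.8 to 125 with DMI, 115 to 150 with luteolin and 137 to 149 with quercetin, and of the 3 tested 2 fell and 1 rose with DMI. Since these are bulk samples, fewer cells of a type and less RNA per cell cannot be told apart, and the part of the marker shifts in the results below was not tested.

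Together the 41 genes took 5.12%, 5.08% and 5.04% of all gene counts in the untreated libraries. In DMI libraries 1, 2 and 3 they took 2.18%, 1.96% and 3.66%, with luteolin 2.50%, 2.35% and 3.21%, and with quercetin 2.82%, 2.86% and 3.81%. The means were 5.08% ± 0.0404 untreated, 2.60% ± 0.928 with DMI, 2.69% ± 0.464 with luteolin and 3.17% ± 0.561 with quercetin (SD, n = 3 each). Every induced library lay below every untreated one, and the 3 induced groups overlapped one another. Fn1 alone held 27.1% of the counts on these genes in untreated cells and 13.9% with DMI.

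**Figure D1:**
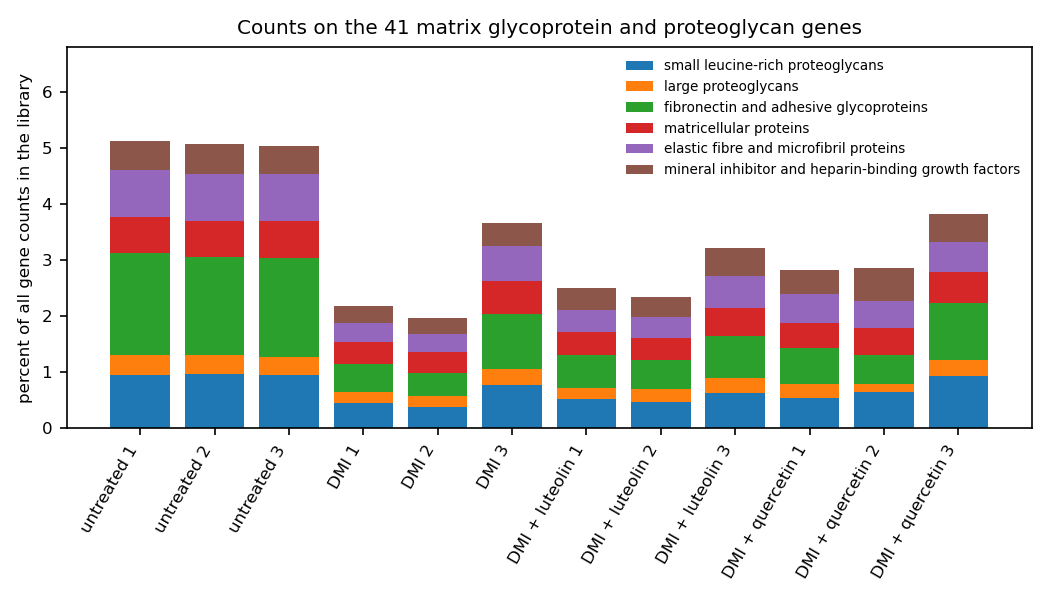
Percent of all gene counts that fell on the 41 genes in each of the 12 libraries, stacked by role from 0. The untreated bars reach 5.04% to 5.12%, and within each induced group the bar of library 3 is the highest, at 3.66%, 3.21% and 3.81%.

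Levels of different genes were compared per length, as the authors' FPKM. In untreated cells the highest mean FPKM were those of Ptn (1477), Bgn (1238), Fn1 (1181), Sparc (1017), Fbln2 (730) and Postn (419). The lowest of the 37 tested were Eln (2.85), Mfap5 (1.12) and Omd (0.552). The same 6 genes that led in untreated cells had 6 of the 7 highest means in each induced group. Fn1 ranked 3 in untreated cells and 5 in every induced group, Mfap4 went from rank 7 to 14 with DMI, 24 with luteolin and 21 with quercetin, and Sparcl1 went from rank 32 to 15, 13 and 19. The 4 genes that were not tested were near 0 throughout: vitronectin (Vtn) had 28 counts over all 12 libraries, fibrillin-2 (Fbn2) 2, fibulin-3 (Efemp1) 56 and midkine (Mdk) 10.

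Induction with DMI, against untreated cells, was the comparison with the most calls among these genes. Of the 37 tested, 19 fell and 3 rose (edgeR's quasi-likelihood test, Benjamini-Hochberg adjusted p under 0.05), where 12.4% of all genes tested fell, 14.7% rose and 27.1% changed in either direction. Their median log2 fold change was -0.78, and that of all genes tested was -0.04. The values of the 3 DMI and 3 untreated libraries did not overlap for 24 genes that were lower with DMI and for 5 that were higher, where 29.4% and 22.7% of all genes tested did so. Genes that fell were found in every role, and the 3 that rose were the small proteoglycan Prelp, the matricellular Sparcl1 and the TGF-beta carrier Ltbp1. Of the 22 calls, 8 were also made in each of 22 alternative settings and single-library omissions: Fn1, Ecm1, Thbs3, Eln and Fbln2 lower, and Prelp, Sparcl1 and Ltbp1 higher. Without DMI library 1, or without DMI library 2, only these 8 were called, where 12.7% and 12.3% of all genes tested were. With library 3 left out of every induced group, 35 of the 37 were called, 29 lower and 6 higher, where 52.8% of all genes tested were called. That fit keeps only libraries 1 and 2 of each induced group, and so leaves out the spread that library 3 adds. Without DMI library 3 alone 28 were called, where 36.4% of all genes tested were, and without untreated library 3 alone 13, where 16.1% were.

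**Figure D2:**
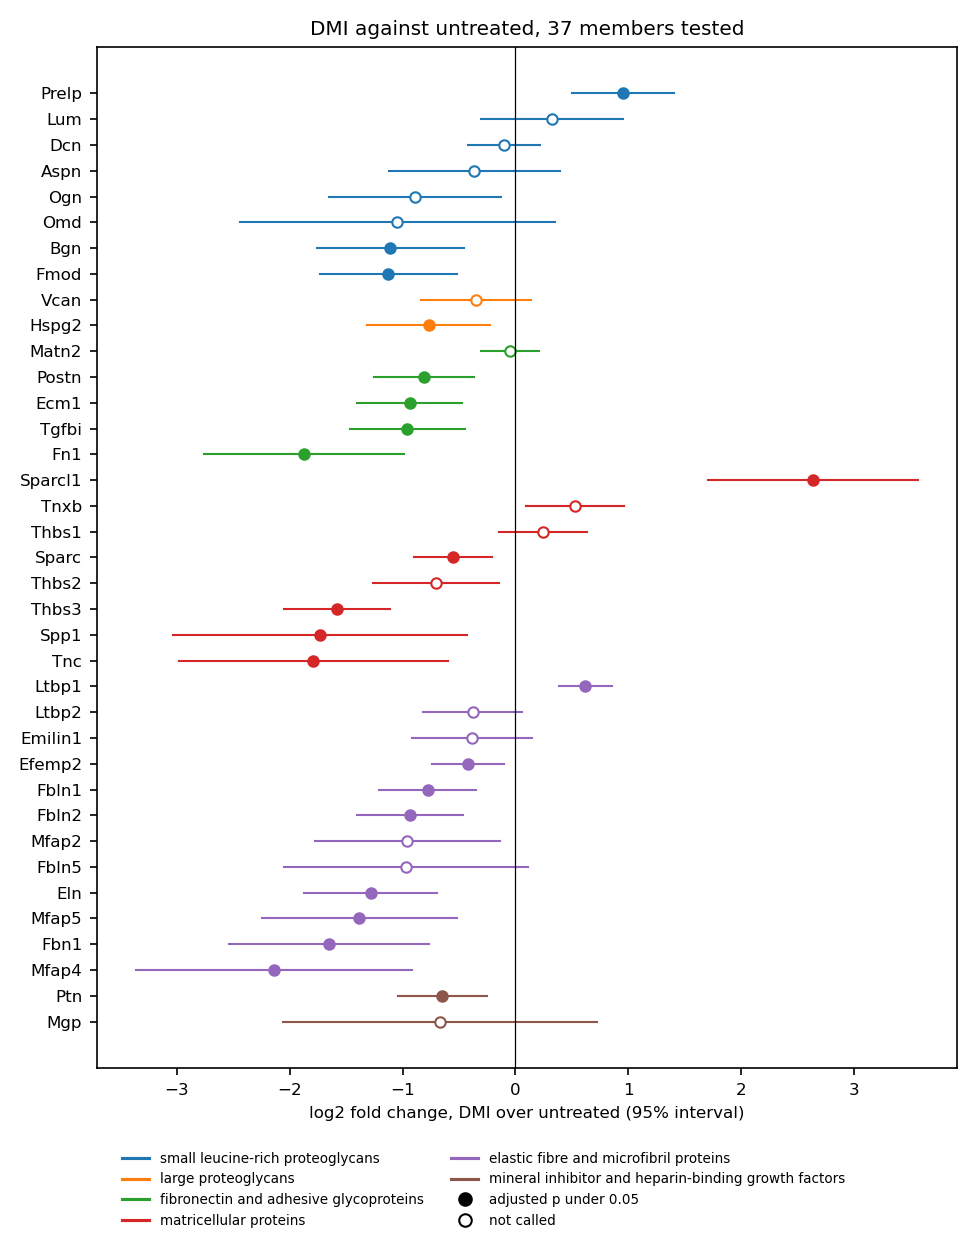
Log2 fold change of DMI over untreated for the 37 genes tested, with 95% intervals, ordered within each role and coloured by it; filled points passed an adjusted p of 0.05. Of the 37 points 31 lie below 0, with Mfap4 lowest at -2.14 and Sparcl1 highest at 2.64.

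Among the 8 small leucine-rich proteoglycans, collagen-binding proteins with a horseshoe of leucine-rich repeats, 2 fell, 1 rose and 5 did not pass. Biglycan (Bgn, ENSMUSG00000031375, chrX:73483602-73495933 on GRCm38) stood at 7711, 7763 and 7814 CPM in untreated libraries and at 2869, 2388 and 5541 with DMI. Its fall was 2.16-fold (log2 fold change -1.11, standard error 0.30, adjusted p = 0.0176). The groups did not overlap, and DMI library 3 was the closest to untreated. Fibromodulin (Fmod, ENSMUSG00000041559), which binds collagen fibrils and sets their diameter, stood at 54.3, 53.1 and 59.5 CPM untreated and at 20.9, 19.4 and 36.1 with DMI. It fell 2.18-fold (log2 fold change -1.13, standard error 0.28, adjusted p = 0.0114). Prolargin (Prelp, ENSMUSG00000041577), which anchors basement membranes to connective tissue, went the other way. Its CPM were 103, 105 and 101 untreated and 228, 247 and 124 with DMI, a 1.94-fold rise (log2 fold change 0.96, standard error 0.21, adjusted p = 0.00608).

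The other 5 small proteoglycans did not pass. Decorin (Dcn), the close relative of biglycan, had a log2 fold change of -0.10 (95% interval -0.42 to 0.22), with 917, 918 and 796 CPM untreated and 860, 771 and 822 with DMI. Lumican (Lum) had 0.32 and asporin (Aspn) -0.37, both with overlapping groups. Osteoglycin (Ogn) had -0.89 and osteomodulin (Omd) -1.05, both without overlap, at adjusted p = 0.0789 and 0.250. Aspn, Omd and Ogn lie in a row on chromosome 13 inside Cenpp, which runs on the opposite strand. The NEBNext Ultra kit of the labels keeps no strand, and Cenpp had 692 counts over all libraries against 108324 for Aspn, 204 for Omd and 68998 for Ogn. Exons of Cenpp share 0 bases with exons of Omd or Ogn and 7 with those of Aspn. Whether reads from Cenpp introns were counted to Omd was not tested. Omd also had few counts, 3 to 23 in the untreated and DMI libraries.

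Prelp and Fmod are neighbours on chromosome 1 of GRCm38, at chr1:133910304-133921414 on the minus strand and chr1:134037254-134048277 on the plus strand. They are 115839 bases apart with no protein-coding gene between them, and with DMI Prelp rose while Fmod fell. They are transcribed away from each other, with both starts at or near the edges of this gap. The 250 bases before the start used for each window are shown because these adjacent genes moved in opposite directions. For Prelp that start lies just inside the gene coordinates above, so its window takes in the first bases of the gene as given there. The windows for Ecm1 and Thbs3 are shown beside them, as examples of genes whose falls held in every alternative setting. The window of Fbln2, whose fall also held in every setting, is not shown. All are RefSeq sequences of GRCm38.p6, 5′ to 3′ on the gene's own strand: Prelp chr1:133921402-133921651 (minus), Fmod chr1:134037004-134037253 (plus), Ecm1 chr3:95739570-95739819 (minus) and Thbs3 chr3:89214930-89215179 (plus). Capitals mark matches to the motifs searched.
Prelp: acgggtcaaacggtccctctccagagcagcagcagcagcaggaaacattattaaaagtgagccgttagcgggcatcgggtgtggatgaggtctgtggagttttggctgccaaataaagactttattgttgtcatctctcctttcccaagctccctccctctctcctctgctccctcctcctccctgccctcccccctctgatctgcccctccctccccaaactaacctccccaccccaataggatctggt
Fmod: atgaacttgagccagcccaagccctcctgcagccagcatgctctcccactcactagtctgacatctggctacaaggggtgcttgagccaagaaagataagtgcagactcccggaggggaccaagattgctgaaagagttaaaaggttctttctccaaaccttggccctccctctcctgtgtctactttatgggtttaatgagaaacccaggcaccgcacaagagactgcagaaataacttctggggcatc
Ecm1: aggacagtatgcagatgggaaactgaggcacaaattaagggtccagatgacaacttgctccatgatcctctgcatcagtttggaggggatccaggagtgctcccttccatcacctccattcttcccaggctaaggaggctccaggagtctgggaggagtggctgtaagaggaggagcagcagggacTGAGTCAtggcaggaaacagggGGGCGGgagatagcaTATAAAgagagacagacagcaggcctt
Thbs3: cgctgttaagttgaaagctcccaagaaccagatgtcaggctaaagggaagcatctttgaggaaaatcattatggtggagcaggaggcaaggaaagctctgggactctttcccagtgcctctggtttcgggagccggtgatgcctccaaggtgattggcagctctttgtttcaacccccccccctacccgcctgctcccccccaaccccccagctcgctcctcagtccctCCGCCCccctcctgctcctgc
Both strands were searched for 6 motifs. The TATA box was taken as TATAAA, the GC box bound by Sp1 as GGGCGG, the site of TEAD factors as GGAATG and that of AP-1 as TGANTCA. The palindromic glucocorticoid receptor element and the direct repeat bound by PPARG with RXR were the others; no matches overlapped in the windows shown. Prelp and Fmod held none of them. In Ecm1 the AP-1 motif began at base -64, the GC box at base -42 and the TATA box at base -27, counted back from the start, and in Thbs3 a GC box on the minus strand began at base -21. A window was at hand for 29 of the 41 genes, 38 windows in all. The TATA box occurred in 9 of these 38 and in 12.4% of all 32851 windows of the table, the GC box in 18 and 32.7%, the TEAD motif in 3 and 12.6%, and the AP-1 motif in 3 and 6.75%. Some windows of the same gene overlap, so 1 match can be counted more than once. By gene, these motifs were in 8, 15, 3 and 3 of the 29. The glucocorticoid receptor and PPARG elements were in 0 of the 38, and in 0.00913% and 0.0335% of all windows. A match describes letters only, and the lack of one says nothing of a factor.

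Of the 2 large proteoglycans, perlecan (Hspg2), a heparan sulfate proteoglycan of basement membranes, stood at 2580, 2429 and 2351 CPM untreated and 1274, 1263 and 1785 with DMI. It fell 1.70-fold (log2 fold change -0.77, standard error 0.25, adjusted p = 0.0388), and this call was lost in 10 of the 22 alternative settings. Versican (Vcan), a chondroitin sulfate proteoglycan that binds hyaluronan, had a log2 fold change of -0.35 (95% interval -0.84 to 0.14).

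Among the adhesive glycoproteins 4 of 5 tested fell. Fibronectin (Fn1, ENSMUSG00000026193, chr1:71585520-71653200), the cell-binding scaffold of the fibroblast matrix, had 14502, 13727 and 14312 CPM in untreated libraries. With DMI it had 2798, 2248 and 6542, far below untreated in all 3, with library 3 the highest. The fall was 3.67-fold (log2 fold change -1.88, standard error 0.41, adjusted p = 0.00608), and the log2 fold change was -2.49 without DMI library 3 and -2.45 without library 3 of every induced group. Periostin (Postn), which cross-links collagen and tenascin, had 3636, 3902 and 3712 CPM untreated and 2003, 1714 and 2700 with DMI. Its log2 fold change was -0.81 (standard error 0.20, adjusted p = 0.0120). Transforming growth factor beta induced protein (Tgfbi), a relative of periostin that binds collagen, changed by -0.96 (standard error 0.23, adjusted p = 0.0108). Extracellular matrix protein 1 (Ecm1), which binds perlecan and other matrix proteins, had 38.4, 47.4 and 41.8 CPM untreated and 18.0, 19.0 and 29.6 with DMI. It changed by -0.94 (standard error 0.22, adjusted p = 0.00799). Matrilin-2 (Matn2), a filament-forming adaptor, had -0.05 (95% interval -0.30 to 0.21), the smallest difference of the 37.

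Matricellular proteins signal to cells rather than build the matrix, and of 8 tested 4 fell and 1 rose. Sparcl1 (hevin, ENSMUSG00000029309, chr5:104079111-104113733) had 32.8, 30.7 and 20.1 CPM untreated and 201, 226 and 92.5 with DMI. All DMI libraries were above all untreated ones, and DMI library 3 lay lowest of the DMI libraries. The rise was 6.21-fold (log2 fold change 2.64, standard error 0.43, adjusted p = 0.00131), the largest of the 37. Its close relative Sparc (osteonectin), which binds collagen and is the most abundant of these 8 by FPKM, had 3988, 3972 and 3923 CPM untreated and 2420, 2455 and 3223 with DMI. Sparc fell 1.47-fold (log2 fold change -0.55, standard error 0.16, adjusted p = 0.0220).

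The other matricellular falls were in Thbs3, Tnc and Spp1. Thrombospondin-3 (Thbs3, ENSMUSG00000028047, chr3:89215180-89226837) had 53.7, 58.0 and 60.5 CPM untreated and 16.4, 14.9 and 26.3 with DMI. It fell 2.99-fold (log2 fold change -1.58, standard error 0.22, adjusted p = 0.000532), the smallest adjusted p of the 37. Thbs3 shares 6.59% of its exon bases with Mtx1 on the opposite strand, a gene with 4782 counts over all libraries against 5877 for Thbs3. Tenascin-C (Tnc), an anti-adhesive protein of remodelling tissue, had 330, 301 and 372 CPM untreated and 52.0, 35.0 and 203 with DMI. Its log2 fold change was -1.79 (standard error 0.55, adjusted p = 0.0306), and was -2.94 without DMI library 3 and -2.90 without library 3 of every induced group. Osteopontin (Spp1), a secreted integrin ligand, had 269, 255 and 329 CPM untreated and 42.5, 32.7 and 182 with DMI, so library 3 lay more than 4-fold above the other DMI libraries. Its log2 fold change was -1.73 (standard error 0.60, adjusted p = 0.0492), a call lost in 14 of the 22 alternative settings, and was -2.92 without DMI library 3 and -2.88 without library 3 of every induced group. Of the rest, Thbs2 had -0.70 (adjusted p = 0.0593), Tnxb 0.53 (adjusted p = 0.0674) and Thbs1 0.24 (adjusted p = 0.350), none with overlapping groups. On chromosome 5 Sparcl1 lies 321384 bases from Spp1, with 4 protein-coding genes between (Dmp1, Ibsp, Dspp and Mepe).

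Elastic fibre and microfibril genes were the largest role, and 7 of 12 tested fell and 1 rose. Mfap4 (ENSMUSG00000042436, chr11:61485431-61488900), a microfibril-associated protein that binds elastin and fibrillin, had 502, 515 and 509 CPM untreated. With DMI it had 57.1, 53.2 and 236, with library 3 more than 4-fold above the others and still below untreated. The fall was 4.40-fold (log2 fold change -2.14, standard error 0.57, adjusted p = 0.0158), the largest of the 37, and was lost in 2 of the 22 alternative settings. Without DMI library 3 the log2 fold change was -3.21, and without library 3 of every induced group -3.16. Mfap4 shares 4.63% of its exon bases with Mapk7 on the opposite strand, which had 14196 counts over all libraries against 36132 for Mfap4. Fbn1 shares 20.1% with Gm9913, Spp1 18.8% with Gm42793 and Prelp 9.68% with Gm15851, genes with 28, 64 and 20 counts. Efemp2 shares 4.57% with Mus81, which had 4323 counts against 59692. Some other called genes had smaller overlaps. What these overlaps add to the counts was not tested. Fibrillin-1 (Fbn1), the core of microfibrils, had 1978, 1914 and 2043 CPM untreated and 464, 390 and 1036 with DMI. It fell 3.14-fold (log2 fold change -1.65, standard error 0.41, adjusted p = 0.0116). Elastin (Eln) had 21.0, 21.0 and 29.2 CPM untreated and 7.17, 8.02 and 14.0 with DMI, a fall of 2.43-fold (log2 fold change -1.28, standard error 0.27, adjusted p = 0.00519).

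Of the fibulins, which join elastin to microfibrils and basement membranes, Fbln2 is the most abundant by FPKM. It had 4764, 4777 and 4805 CPM untreated and 2058, 2018 and 3428 with DMI (log2 fold change -0.93, standard error 0.22, adjusted p = 0.00837). Fbln1 changed by -0.78 (standard error 0.20, adjusted p = 0.0133) and fibulin-4 (Efemp2), needed for elastin cross-linking, by -0.42 (standard error 0.15, adjusted p = 0.0492), the latter a call lost in 17 of the 22 alternative settings. Fibulin-5 (Fbln5) did not pass. It had 221, 229 and 253 CPM untreated and 70.4, 64.7 and 224 with DMI, so DMI library 3 alone lay within the untreated range. Mfap5, a microfibril glycoprotein at 3.14 to 5.01 CPM untreated and 0.944 to 2.28 with DMI, changed by -1.38 (standard error 0.40, adjusted p = 0.0228). Its relative Mfap2 had -0.96 (adjusted p = 0.0791) and the elastin-binding Emilin1 -0.39 (adjusted p = 0.266).

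The latent TGF-beta binding protein Ltbp1, which tethers the inactive growth factor to the matrix, was the elastic fibre gene that rose. It had 65.9, 72.8 and 74.9 CPM untreated and 107, 106 and 115 with DMI, with little spread among the DMI libraries, and its library 3 was the farthest from untreated, where for the other 21 called genes library 3 was the nearest. The rise was 1.53-fold (log2 fold change 0.62, standard error 0.11, adjusted p = 0.00189). Ltbp2, which does not bind latent TGF-beta, had -0.38 (adjusted p = 0.183). In the last role pleiotrophin (Ptn), a secreted growth factor bound to heparan sulfate, had 5158, 5442 and 5030 CPM untreated and 3110, 2917 and 3951 with DMI. It changed by -0.65 (standard error 0.18, adjusted p = 0.0206). Matrix Gla protein (Mgp), an inhibitor of calcification, had 81.1, 87.5 and 93.5 CPM untreated and 22.1, 18.5 and 124 with DMI. DMI libraries 1 and 2 lay below and library 3 above all untreated ones, and the log2 fold change of -0.67 did not pass (adjusted p = 0.480).

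**Figure D3:**
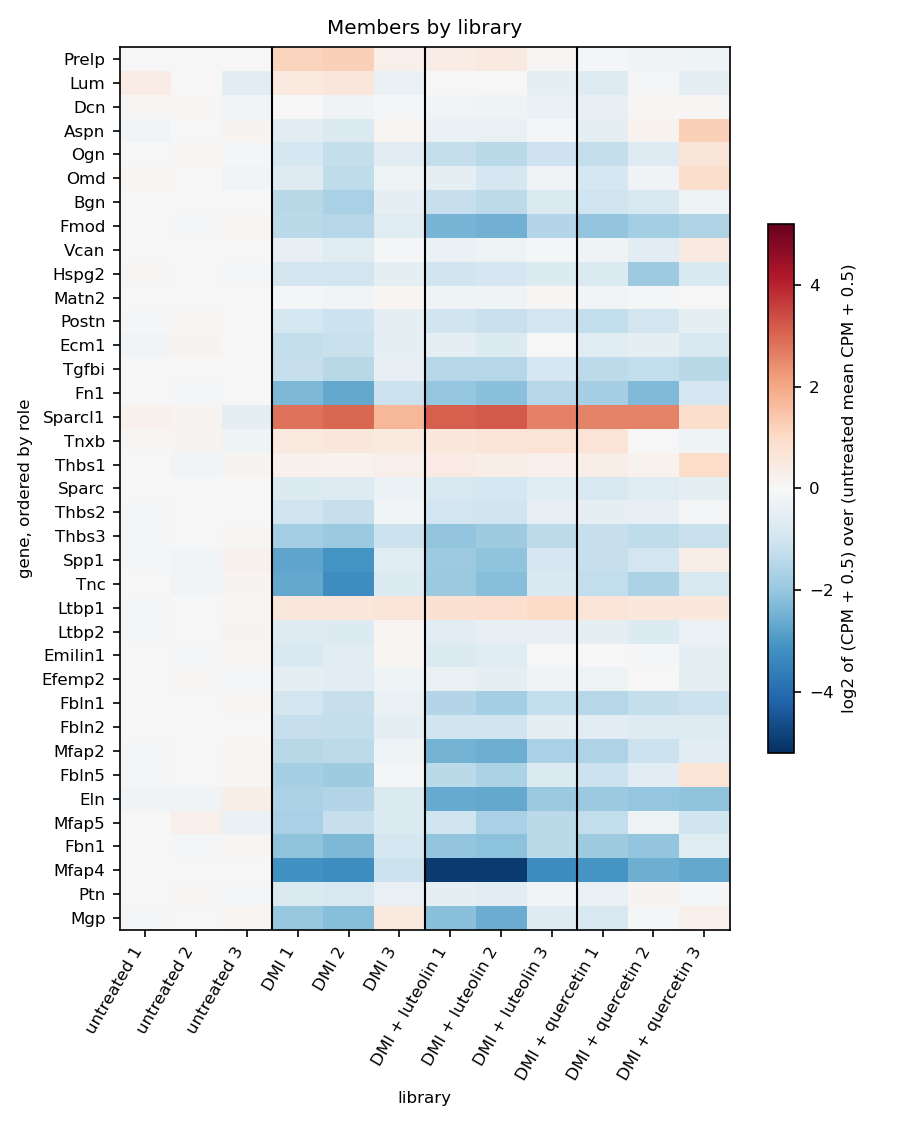
Log2 ratio of each library's CPM plus 0.5 to the untreated mean CPM plus 0.5, for the 37 genes tested, ordered by role, with the 12 libraries in columns; blue is below the untreated mean and red above. In the DMI group the column of library 3 is the palest for most genes, and Sparcl1 is red in all 9 induced libraries.

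Library 3 was the DMI library nearest to the untreated mean for 21 of the 22 called genes (95.5%), as it was for 92.5% of all 4024 genes called. Within the luteolin group library 3 was nearest for 20 of these 22 (90.9%), and for 82.3% of all 4024. Within the quercetin group it was nearest for 13 (59.1%), and for 60.2% of all 4024. The median SD of log2(CPM + 0.5) over the 37 genes was 0.0867 in untreated libraries, 0.468 with DMI, 0.303 with luteolin and 0.319 with quercetin. Over all genes tested these were 0.0998, 0.226, 0.162 and 0.299.

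By the authors' deposited table, with its own fit, 19 of the 41 were lower and 4 higher at an adjusted p under 0.05 for DMI against untreated. All 23 were among the 37 tested here, and of the 14855 genes tested here 14.4% were lower and 19.2% higher in the authors' deposited table. The genes were not all the same. Tnc and Spp1, called lower here, did not pass there, while Ogn and Mfap2 (lower) and Tnxb (higher), not called here, did.

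Related matrix genes, from lists that were also chosen with earlier results known, were read from the same fit. For comparison, 12.4% of all 14855 genes tested were called lower with DMI and 14.7% higher, and their median was -0.04. Of 23 matrix receptors and cell surface proteoglycans tested, 13 fell and 1 rose (median log2 fold change -0.77). The collagen receptor gene Mrc2 fell 2.08-fold, the integrin subunit Itgb1 1.58-fold and the collagen-binding kinase Ddr2 1.90-fold, and Cd36, a thrombospondin receptor that is also on the adipocyte marker list, rose from 1.35 to 1387 CPM. Of 22 TGF-beta genes 9 fell and 2 rose (median -0.57), with the receptor Tgfbr2 lower by 1.82-fold, Ski by 1.93-fold and Pmepa1, a feedback inhibitor, by 3.36-fold, and the co-receptor Tgfbr3 higher by 1.35-fold. Of 34 enzymes that build glycosaminoglycan chains 9 fell and 5 rose (median -0.20). Ext2, Ndst1 and Hs6st1, which make and sulfate heparan sulfate, fell by 0.48, 0.54 and 0.47 on the log2 scale, and Extl3 rose by 0.94. Among 49 further glycoproteins and proteoglycans 13 fell and 8 rose (median -0.22), agrin (Agrn) by 2.89-fold downward and Sned1 by 2.94-fold upward, while Aebp1 fell 1.93-fold and Slit2 2.08-fold. Among 28 collagens 7 fell and 4 rose (median -0.09): Col1a1, Col1a2 and Col3a1 fell 2.04-fold, 1.74-fold and 1.42-fold, and the basement membrane chain Col4a1 rose 1.55-fold. In the order of these lists, 56.5%, 40.9%, 26.5%, 26.5% and 25.0% of the genes tested were called lower. Called higher were 4.35%, 9.09%, 14.7%, 16.3% and 14.3%, so chain enzymes and collagens had shares close to the 14.7% of all genes.

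Luteolin added to DMI, against DMI alone, gave no call among these genes in the fit of all 12 libraries. All 37 had an adjusted p of at least 0.400 by edgeR's quasi-likelihood test, in a comparison that called 3 of all genes tested (0.0202%). The unadjusted p was under 0.05 for 8 of the 37 and for 904 of all genes, DESeq2, which gave 37 of all 41 genes an adjusted p, called 1 of them, Eln, and 0.305% of all genes, and limma-voom called 0 of the 37. The median log2 fold change was -0.10 over the 37 and -0.02 over all genes tested. The lower side held several elastic fibre genes: the values of the 3 luteolin libraries lay below all 3 DMI libraries for Fmod, Eln, Fbln1, Mfap2 and Mfap4, where 5.24% of all genes tested did so, and above them for Ltbp1, where 6.23% did.

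Mfap4 showed the largest difference. It had 57.1, 53.2 and 236 CPM in DMI libraries 1, 2 and 3, and 15.7, 15.8 and 52.9 with luteolin. Each luteolin library was below the DMI library of its number, at ratios of 0.274, 0.297 and 0.224, and luteolin library 3 lay just under the lowest DMI library. The log2 fold change was -2.04 (standard error 0.57, adjusted p = 0.509, 95% interval -3.28 to -0.80). Mfap2 had 3.90, 4.25 and 9.67 CPM with DMI and 1.69, 1.59 and 3.26 with luteolin, a log2 fold change of -1.46 (standard error 0.41, adjusted p = 0.509). Eln had 7.17, 8.02 and 14.0 CPM with DMI and 3.49, 3.30 and 5.79 with luteolin, a log2 fold change of -1.22 (standard error 0.29, adjusted p = 0.400). All 3 genes were already lower with DMI than in untreated libraries, without overlap, and stood lower still with luteolin. The same held for Fmod, at 9.90, 9.32 and 18.9 CPM with luteolin (log2 fold change -1.01, standard error 0.29, adjusted p = 0.509), and for Fbln1, at 43.8, 36.5 and 51.2 CPM (log2 fold change -0.74, standard error 0.20, adjusted p = 0.491). Mgp had 18.9, 14.4 and 54.2 CPM with luteolin and 22.1, 18.5 and 124 with DMI. Its log2 fold change of -0.92 (standard error 0.65, adjusted p = 0.941) turned to 0.52 without DMI library 3 and was -1.73 without luteolin library 3.

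In this comparison same-numbered libraries deviated together (r = 0.261, 0.337 and 0.590), so the replicate number was also fitted as a block. Libraries 1 and 2 also correlated across their numbers (r = 0.226 and 0.367), and library 3 stood apart in both groups, so these correlations do not tell which of libraries 1 and 2 belong together. Over all 12 libraries the block left 0 of the 37 called, with 0.168% of all genes called. In only the 6 luteolin and DMI libraries it called 10 of the 37, where 6.58% of all genes tested were called. Of these, 8 were lower with luteolin: Mfap4 (log2 fold change -1.94, adjusted p = 5.27e-05), Fmod (-1.02, adjusted p = 0.00104), Fbln1 (-0.70, adjusted p = 0.00314), Eln (-1.20, adjusted p = 0.00343), Mfap2 (-1.41, adjusted p = 0.00581), Prelp (-0.58, adjusted p = 0.0133), Lum (-0.43, adjusted p = 0.0382) and Ogn (-0.32, adjusted p = 0.0438). Ecm1 (0.55, adjusted p = 0.0119) and Ltbp1 (0.29, adjusted p = 0.0391) were higher. Without DMI library 3 alone, and with no block, 1 of the 37 was called, where 1.7% of all genes tested were. Without library 3 of the induced groups and with no block, 9 of the 37 were called, 6 lower and 3 higher, where 10.4% of all genes were called. Fmod, Prelp, Eln, Fbln1, Mfap2 and Mfap4 were the 6. Only libraries 1 and 2 of each induced group entered that fit.

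Fn1, the gene with the largest share of counts, had 3488, 3176 and 5080 CPM with luteolin and 2798, 2248 and 6542 with DMI. The groups overlapped and the log2 fold change was 0.02 (95% interval -0.84 to 0.88). Prelp had 136, 142 and 108 CPM with luteolin and 228, 247 and 124 with DMI, lower in each same-numbered library (log2 fold change -0.63, adjusted p = 0.617). No gene of the related lists was called with luteolin. Mrc2 and Itgb1 had log2 fold changes of 0.20 and 0.18, Col1a2 and Col3a1 of -0.18 and -0.26, Chpf and Ext2 of 0.20 and 0.00, Tgfbr3 and Tgfbr2 of 0.19 and -0.02, and Nid1 and Pcolce of -0.10 and 0.09.

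**Figure D4:**
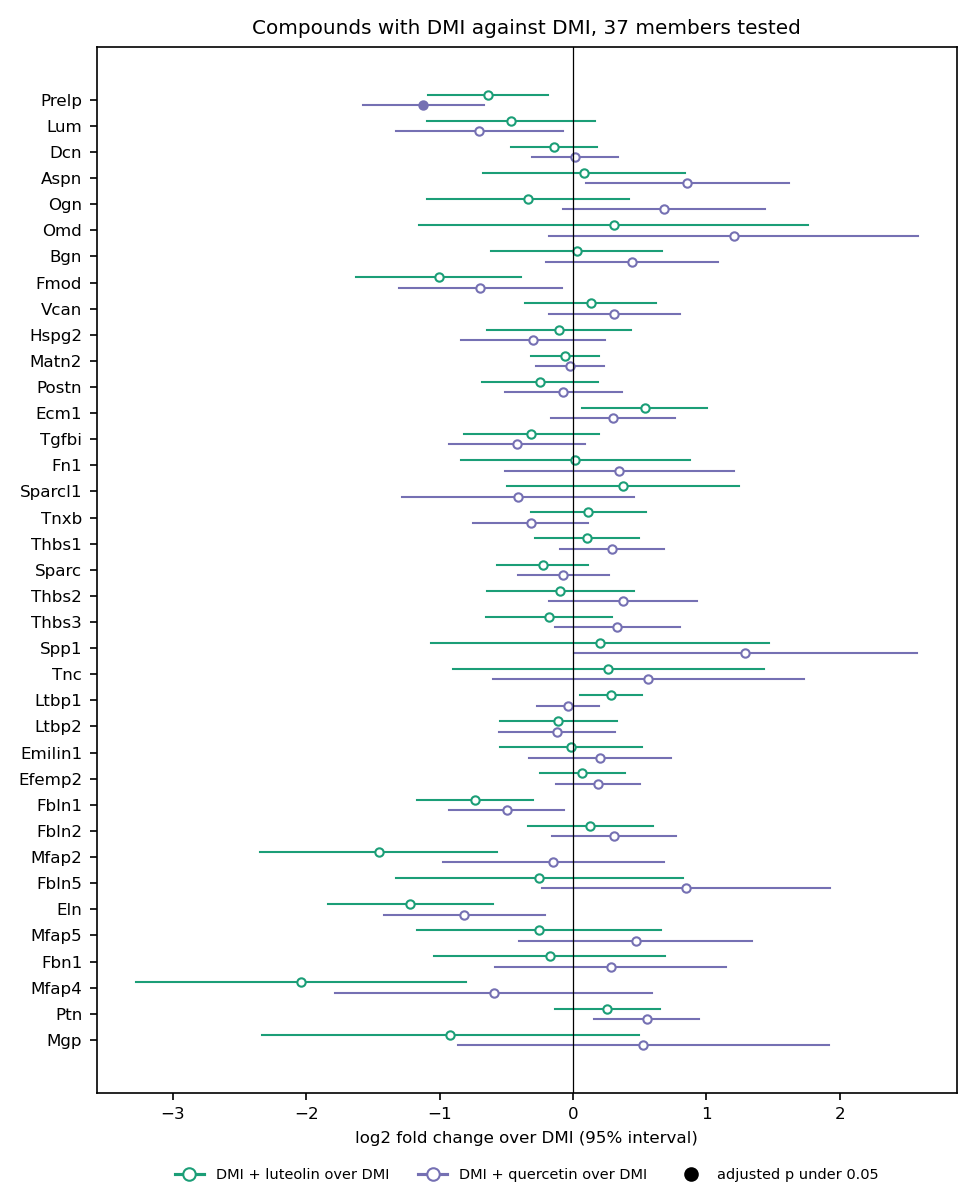
Log2 fold change over DMI for DMI with luteolin (green) and DMI with quercetin (violet), for the 37 genes tested, with 95% intervals; filled points passed an adjusted p of 0.05. The filled point is Prelp with quercetin at -1.12, and the lowest points with luteolin are Mfap4 at -2.04, Mfap2 at -1.46 and Eln at -1.22.

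Quercetin added to DMI, against DMI alone, gave 1 call among the 37, Prelp, in a comparison where 1.01% of all genes tested were called (0.848% lower, 0.162% higher). Prelp had 228, 247 and 124 CPM with DMI and 96.3, 91.1 and 87.9 with quercetin. All quercetin libraries lay below all DMI libraries and also below the 101 to 105 CPM of untreated cells. The fall was 2.18-fold (log2 fold change -1.12, standard error 0.21, adjusted p = 0.0444 in edgeR's quasi-likelihood test). DESeq2, which gave 37 of all 41 genes an adjusted p, called 2 of them, and 6.05% of all genes. The Prelp call did not hold with limma-voom (adjusted p = 0.0770) or with only the 6 libraries of the pair (adjusted p = 0.208), nor when any one untreated library, DMI library 1 or 2, luteolin library 1 or 2, or quercetin library 2 or 3 was left out (adjusted p = 0.0665 to 0.210). In the authors' deposited table Prelp was likewise the 1 gene of the 41 below 0.05 for quercetin, and none was for luteolin; that table calls 2.38% and 0.411% of the 14855 genes tested here.

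The median log2 fold change with quercetin was 0.21 over the 37 and 0.02 over all genes tested, and 8 of the 37 had an unadjusted p under 0.05, as did 3159 of all genes. Quercetin libraries lay below all DMI libraries for Fmod, Prelp and Eln, where 7.35% of all genes tested did so, and above them for Ptn, where 6.68% did. Spp1 had 42.5, 32.7 and 182 CPM with DMI and 124, 142 and 363 with quercetin, higher in each same-numbered library, but with library 3 of DMI above the first 2 of quercetin (log2 fold change 1.29, standard error 0.59, adjusted p = 0.234). Omd had 1.20 (standard error 0.64, adjusted p = 0.298), Aspn 0.86 (standard error 0.35, adjusted p = 0.189) and Fbln5 0.85 (standard error 0.50, adjusted p = 0.348). For these 3 genes the highest of all 12 libraries was quercetin library 3, at 2.82 CPM for Omd, 1288 for Aspn and 381 for Fbln5. Eln had 5.89, 5.56 and 5.15 CPM with quercetin (log2 fold change -0.82, standard error 0.28, adjusted p = 0.132).

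The quercetin count depended on which libraries were kept. Without quercetin library 3 alone 0 of the 37 were called, where 0.0263% of all genes were, and without luteolin library 3 alone 1, where 1.79% were. Without DMI library 3, 12 of the 37 were called, 10 higher and 2 lower, where 17.4% of all genes were called. With library 3 left out of every induced group, 19 were called, 16 higher and 3 lower, where 33.4% were. Among them Spp1 had a log2 fold change of 1.85 (adjusted p = 4.19e-07 by the same edgeR test), Mgp 1.73 (adjusted p = 1.59e-05), Fbln5 1.00 (adjusted p = 0.000122) and Fn1 0.52 (adjusted p = 0.0164). This fit keeps only libraries 1 and 2 of each induced group, and library 3 stood apart in these same data. Its p-values therefore leave out the spread that library 3 adds. Of the related lists, the other glycoproteins held the calls of the full comparison: the basement membrane linker Nid2 fell 2.08-fold, nephronectin (Npnt) from 13.4 to 2.37 CPM and Smoc1 from 5.73 to 0.509 CPM. No collagen, matrix receptor, TGF-beta gene or chain enzyme was called, with Col1a2 and Col3a1 at log2 fold changes of 0.01 and -0.17, Mrc2 and Itgb1 at 0.18 and 0.52, Tgfbr3 and Tgfbr2 at 0.31 and 0.54, and Chpf and Ext2 at 0.15 and 0.13.

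**Figure D5:**
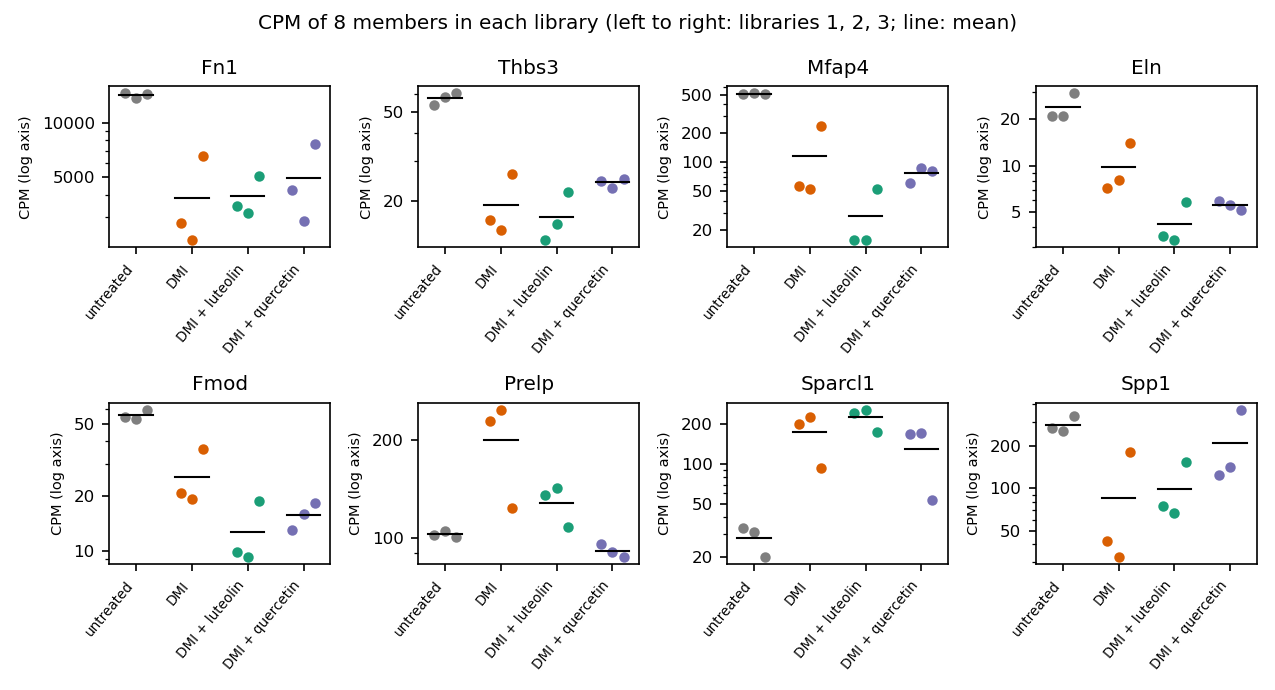
CPM of 8 genes in each library on log axes, libraries 1, 2 and 3 from left to right within a group, with lines at the group means. Mfap4, Eln and Fmod have their lowest mean with luteolin, Prelp with quercetin lies at 87.9 to 96.3, and DMI library 3 lies between the first 2 and the untreated libraries in every panel.

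Luteolin and quercetin were compared with each other as 1 pair, at doses not known to match. None of the 37 was called, nor was any of the 14855 genes tested (0%), by edgeR's quasi-likelihood test, while 9 of the 37 and 1326 of all genes had an unadjusted p under 0.05 and limma-voom called 0 of the 37. DESeq2, which gave 36 of all 41 genes an adjusted p, called 0 of them, and 0.0155% of all genes. The log2 fold change of luteolin over quercetin had a median of -0.24 over the 37 and -0.01 over all genes tested. Luteolin libraries lay below all quercetin libraries for Thbs3, Mfap2 and Mfap4, where 5.07% of all genes tested did so, and above them for Prelp, Sparcl1 and Ltbp1, where 5.2% did.

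Mfap4 had 15.7, 15.8 and 52.9 CPM with luteolin and 60.5, 87.9 and 81.1 with quercetin. The log2 fold change was -1.45 (standard error 0.56, 95% interval -2.66 to -0.23, adjusted p = 0.541), so the interval allows a difference of either a small or a large size. Mfap2 had 1.69, 1.59 and 3.26 CPM with luteolin and 3.44, 5.00 and 7.73 with quercetin (log2 fold change -1.31, standard error 0.41, 95% interval -2.20 to -0.42, adjusted p = 0.541). Mgp had 18.9, 14.4 and 54.2 CPM with luteolin and 48.8, 83.4 and 106 with quercetin, with luteolin library 3 above quercetin library 1 (log2 fold change -1.45, standard error 0.66, 95% interval -2.87 to -0.03, adjusted p = 0.553). Fbln5 had -1.10 (standard error 0.50, adjusted p = 0.553), Spp1 -1.09 (standard error 0.59, adjusted p = 0.571) and Ogn -1.02 (standard error 0.35, adjusted p = 0.541). Prelp had 0.49 (95% interval 0.04 to 0.94) and Fn1 -0.33 (95% interval -1.19 to 0.53), and neither was called. These intervals are for each gene alone and are not adjusted for the number of genes tested. Without library 3 of the induced groups 16 of the 37 were called, 14 lower and 2 higher with luteolin, where 13.8% of all genes were called. Mfap4 at -2.24 (adjusted p = 3.44e-06 by the same edgeR test) and Mgp at -1.99 (adjusted p = 6.11e-05) were among the lower ones. Only libraries 1 and 2 of each induced group entered that fit, so its p-values leave out the spread that library 3 adds.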

How the data were processed

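The submitters sequenced 12 RNA libraries of 3T3-L1 cells. Their deposited table holds raw counts per gene, made by the authors with featureCounts 1.5.0-p3 (CASAVA 1.8.2 is also named), per the submitters' processing notes. No source used here gives the aligner. The authors' deposited FPKM served only to compare levels between genes. The table also carries the authors' own comparisons as deposited log2 fold changes and adjusted p-values, made with a tool that no source used here names. The build in the notes is mm9, but starts and ends of 98.3% of genes, and of 39 of the 41 described, equal GENCODE M21 on GRCm38, so coordinates are GRCm38.

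Counts of the whole table were fitted with edgeR 4.0.16 in R 4.3.3: filterByExpr, TMM, the quasi-likelihood test with 1 term per group over all 12 libraries, and Benjamini-Hochberg adjustment over 14855 genes at 0.05. CPM are counts divided by TMM-scaled totals, and intervals are at 95% for each gene alone, not adjusted for the number of genes. Full statistics were given for genes called and, where fewer than 3 were called, for the 6 with the largest absolute log2 fold change; of related lists up to 4 called genes, or else 2, of the highest mean CPM were named. The genes, lists and rules were chosen with earlier results of these data known. Alternatives were RLE scaling, library totals, no filter or 1 CPM in 3 libraries, DESeq2 1.42.0, limma-voom (limma 3.58.1), the 6 libraries of the comparison alone, a replicate block, and leaving out libraries.

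Numbers were treated as pairing where every same-numbered pair correlated over 0.1, which held for luteolin and DMI (r = 0.261, 0.337 and 0.590), though differently numbered libraries 1 and 2 correlated too (0.226 and 0.367). The labels do not say what a number marks. Replicates differed by more than sampling noise in every pair (lowest chi-square 2.78 per gene). Protein sequences, and promoters of the remaining 12 genes, were not analysed here.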

Additional observations from a re-analysis of the deposited data

How the results depend on the processing

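Counts are of 37 genes tested, or of all 41 with no low-count filter, and of the 39, 37, 37 and 36 that DESeq2 gave an adjusted p in the order of comparisons below. The 22 called for DMI against untreated (27.1% of all genes tested) became 35 without library 3 of the induced groups (52.8%). Leaving out single libraries gave 8 to 28. There were 8 without DMI library 1 or 2 (12.7% and 12.3%) and 13 without untreated library 3 (16.1%). Without DMI library 3 there were 28 (36.4%). RLE scaling and library totals each gave 19 (26.3% and 25.8% of all genes). DESeq2 gave 21 (23.9%), limma-voom 24 (26.7%) and the replicate block 26 (31.4%), and no call changed direction. The 0 called with luteolin (0.0202% of all genes) became 7 with no low-count filter (1.25%) and 1 with DESeq2 (0.305%). It became 10 with the replicate block in only the 6 libraries (6.58%) and 9 without library 3 of the induced groups (10.4%). Leaving out single libraries gave 0 to 1, the 1 without DMI library 3 (1.7%). The log2 fold change of Mgp with luteolin ran from -1.73 without luteolin library 3 to 0.52, a reversal, without DMI library 3. The 1 called with quercetin (1.01% of all genes) became 8 with no filter (5.98%) and 2 with DESeq2 (6.05%). It became 0 with limma-voom (0.00673%) or only the 6 libraries (0%), and 19 without library 3 of the induced groups (33.4%). It ran from 0 to 12 when single libraries were left out, the 12 without DMI library 3 (17.4%). Quercetin and DMI libraries missed the rule of every same-numbered r over 0.1 (r = 0.068, 0.279 and 0.335), and whether numbers pair them is not known. With the numbers as a replicate block 4 were called over all 12 libraries (9.39% of all genes) and 3 in only the 6 libraries (5% of all genes). Between the compounds the 0 (0% of all genes) became 8 with no filter (1.55%) and 16 without library 3 of the induced groups (13.8%). It stayed 0 without any single library. The cause of these shifts was not tested.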
